A study of Mus musculus with 22 samples.

Results

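The LPS response of bone marrow-derived macrophages (BMDM) lacking the protein kinases MK2 and MK3 (MK2/3-/-) was compared with that of BMDM lacking MK2 alone (MK2-/-). The measure was the difference of the responses, which is LPS minus medium in MK2/3-/- BMDM less LPS minus medium in MK2-/- BMDM on the log2 scale. It used 15 of the 22 arrays of the series, 4 with LPS and 4 with medium in MK2-/-, and 4 with LPS and 3 with medium in MK2/3-/- BMDM. The remaining 7 arrays, 3 with LPS and 4 with medium, were from wild-type (wt) BMDM and contributed to the estimate of the spread. Per the labels, all mice were male C57BL/6 animals of 10 to 14 weeks, the bone marrow cells had been cultured for 9 days with 10 ng/ml of the growth factor M-CSF, and they were then kept for 360 min in medium or with 100 ng/ml LPS. The mice carried the deletions in all tissues, so that the cells had lacked the kinases throughout their development. A positive difference means that a gene was more strongly induced, or less strongly repressed, in MK2/3-/- than in MK2-/- BMDM.

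LPS is shed from the surface of Gram-negative bacteria. It engages Toll-like receptor 4 on macrophages and thereby activates the NFκB pathway and the mitogen-activated protein kinase p38. MK2 and MK3 are closely related kinases that p38 phosphorylates and activates. They are known above all for phosphorylating tristetraprolin, the product of Zfp36, which in its unphosphorylated form directs the decay of cytokine mRNAs that carry AU-rich elements. Macrophages without MK2 also hold less p38 protein, since the kinases stabilise it, and MK3 can take over part of the role of MK2. A signal on an array is a steady-state mRNA level, so changes in transcription, in decay and in the make-up of the culture cannot be told apart.

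The transcripts of the deleted kinases were inspected first. Mapkapk2, which encodes MK2, had log2 signals of 8.96, 9.00, 8.70 and 8.86 in MK2-/- BMDM in medium and of 8.47, 8.50 and 8.34 in MK2/3-/- BMDM, below the wt values of 12.09, 12.38, 10.78 and 12.42. With LPS it was at 11.70, 11.53, 11.25 and 11.94 in MK2-/-, 10.90, 11.21, 10.85 and 11.07 in MK2/3-/- and 15.13, 14.32 and 15.42 in wt BMDM, so that the knockouts lay below wt here too. Mapkapk3 (NM_178907), which encodes MK3, had signals of 13.12, 12.40, 12.90 and 13.07 in MK2-/- medium arrays and 12.47, 12.59, 11.93 and 12.45 after LPS. The wt arrays were at 12.81, 13.22, 13.40 and 13.03 in medium and 11.95, 12.18 and 12.24 with LPS. In MK2/3-/- BMDM it was at 11.15, 10.95 and 11.40 in medium and at 7.64, 8.06, 7.72 and 8.54 with LPS. The MK2/3-/- arrays lay below all MK2-/- arrays under both treatments, and the gap was wider with LPS. The LPS response of Mapkapk3 was -0.51 in MK2-/- and -3.18 in MK2/3-/- BMDM, a difference of -2.66 ± 0.32 (SE, adjusted p 0.00245). Whether the probes of either gene lie within the deleted part was not given in the sources used here, so that a signal that remains in the knockout does not test the labels. The response of Mapkapk2 differed by -0.16 (95% interval -1.06 to 0.74, adjusted p 0.963). Of 88 tested genes within 50 protein-coding genes on either side of Mapkapk3, 0 were called in the difference of responses by limma and 10 had an unadjusted p below 0.05, which 8.61% of all tested genes had. Beside Mapkapk2 these counts were 0 and 12 of 85. With LPS, 14 of the neighbours of Mapkapk3 and 13 of those of Mapkapk2 were called between the genotypes, against 13.8% of all genes.

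A pair of arrays went against their label. The third replicates of MK2-/- BMDM, in medium and with LPS, had mean log2 signals of 2.65 and 2.00 for the Y-linked genes Ddx3y and Eif2s3y, whereas the other 20 arrays lay between 10.58 and 11.77, and Xist was at 7.66 or more in both arrays on its 2 probes and at 5.78 or less on the other arrays. The labels give male animals throughout. The LPS array of this pair also had 2927 spots marked by the scanner software, against 115 to 261 on the other arrays. Results are therefore given with and without the pair. All arrays of a genotype lay on 1 slide, so that genotype and slide cannot be told apart when the genotypes are compared under 1 treatment, whereas an additive slide effect cancels in the difference of responses. Of the 9 macrophage markers tested, 9 were well above background on all 15 arrays, among them Adgre1, which encodes F4/80, and Csf1r. Fibroblast collagens varied widely between arrays of the same group, with a summed log2 signal of 5 fibroblast markers from 10.4 to 14.9 in MK2/3-/- LPS arrays and from 9.44 to 15.5 in MK2/3-/- medium arrays, and none of these markers was called in the difference of responses. The part of these features in the results below was not tested.

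Most of the LPS response was shared by both knockouts. Of 22384 genes tested, 9931 (44.4%) were called between LPS and medium in MK2-/- BMDM and 10691 (47.8%) in MK2/3-/- BMDM at an adjusted p below 0.05, and of these 3195 were called as induced and 5165 as repressed in both. Induction was called for 17.7% of the genes in MK2-/- and 20.3% in MK2/3-/- BMDM, and repression for 26.7% and 27.5%. Between the genotypes, 13.8% of the genes were called with LPS and 2.82% in medium. The difference of responses was called for 12 genes (0.0536%). It was higher in MK2/3-/- BMDM for 5 of them (0.0223%), namely Lck, Ggct, Otor, Noxo1 and C1ra, and lower for 7 (0.0313%), namely Mapkapk3, U90926, Calcrl, Cbx7, Adgrg5, Ampd3 and Nol4l. Of the 7, Mapkapk3 is the gene deleted in MK2/3-/- BMDM. Cbx7 and Adgrg5 were not well above background on any MK2-/- array, so that their values rest on the MK2/3-/- medium arrays. At an unadjusted p below 0.05 there were 1928 genes (8.61%), 797 on the higher side (3.56%) and 1131 on the lower side (5.05%). The median difference over all genes was -0.0016, and the median half-width of its 95% interval, unadjusted for the number of genes, was 0.92. With these numbers of arrays a change of the response by less than about 2-fold thus lay within the error for many genes. A call at the adjusted threshold needed more. The smallest difference called was 1.74, for Noxo1, so that changes well above 2-fold could also go uncalled.

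**Figure D1:**
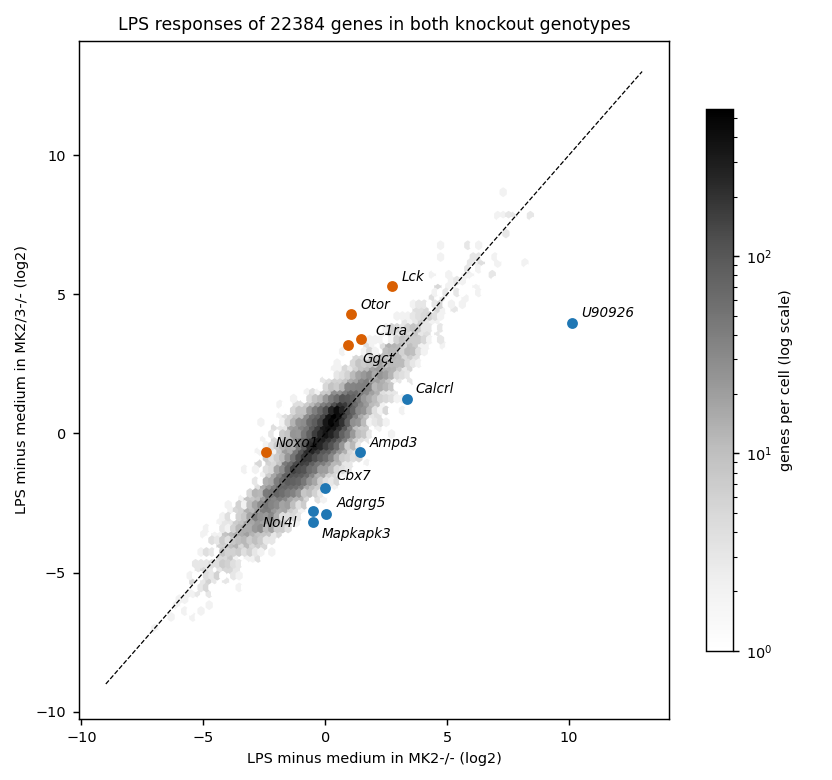
LPS minus medium in MK2-/- BMDM (horizontal axis, log2) against the same in MK2/3-/- BMDM (vertical axis, log2) for 22384 genes, shaded by the number of genes per cell on a log scale, with the dashed line marking equal responses. Of the 12 genes called, the 5 in orange lie above the line and the 7 in blue below it, U90926 farthest from it at 10.11 in MK2-/- and 3.98 in MK2/3-/- BMDM.

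The kinase Lck (NM_010693) showed the lowest p of the genes with a higher response. Lck is a kinase of the Src family best known for its role beside the T cell receptor. Its log2 signals in medium were 8.28, 8.71, 8.39 and 8.20 in MK2-/- and 8.22, 7.90 and 7.97 in MK2/3-/- BMDM. With LPS they were 10.88, 11.28, 10.70 and 11.73 in MK2-/- and 13.60, 13.17, 12.65 and 13.81 in MK2/3-/- BMDM. The medium arrays of both genotypes overlapped and the LPS arrays did not. LPS raised Lck 6.74-fold in MK2-/- and 38.9-fold in MK2/3-/- BMDM, and the difference of 2.53 ± 0.37 (adjusted p 0.0150) was 2.38 without the pair of arrays (adjusted p 0.0314). The wt response of 2.64 lay beside that of MK2-/- BMDM. Of 9 T cell markers tested, 0 were called in the difference of responses by limma and 1 had an unadjusted p below 0.05, Cd5 (1.31). Of the 9, 6 lay above 0, among them Cd8a (1.24), Cd3d (1.22) and Cd3e (0.50). Below 0 lay 3, Cd247 (-1.10), Cd28 (-0.44) and Cd4 (-0.054). Cd3d was well above background on 6 and Cd8a on 11 of the 15 arrays. The summed signal of the list, to which Cd3e and Cd4 added most, spanned 12.6 to 13.1 on the 3 MK2-/- LPS arrays with a value for every marker. On the 4 of MK2/3-/- BMDM it spanned 12.8 to 13.6. The summed signal of 6 natural killer cell markers spanned 10.4 to 10.9 on the LPS arrays of MK2/3-/- BMDM. On the 3 complete LPS arrays of MK2-/- BMDM it spanned 9.63 to 9.82. In medium it spanned 9.73 to 9.97 in MK2/3-/- and 9.19 to 9.56 in MK2-/- BMDM. Prf1 and Gzma added most to this sum. None of the 6 was called in the difference of responses, where 5 lay above 0, among them Prf1 (0.58). Below 0 lay Ncr1 (-1.89), well above background on 3 of the 15 arrays. The part of these cells in the response of Lck was not tested.

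Ggct (NM_026637) encodes gamma-glutamylcyclotransferase, an enzyme of the glutathione cycle. In medium its signals were 8.86, 7.49, 8.77 and 8.68 in MK2-/- and 8.75, 8.60 and 8.78 in MK2/3-/- BMDM, and with LPS they were 9.50, 9.49, 9.09 and 9.46 and 11.87, 12.04, 11.61 and 12.04. Every LPS array of MK2/3-/- lay above every LPS array of MK2-/- BMDM by more than 2 log2 units. Its response was 0.94 in MK2-/-, 3.18 in MK2/3-/- and 2.63 in wt BMDM, so that here the wt response lay nearer to that of the double knockout. The difference of 2.24 ± 0.36 (adjusted p 0.0285) became 2.04 without the pair (adjusted p 0.0514).

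Otor (NM_020595), which encodes a small secreted protein described in the inner ear and in cartilage, had medium signals of 5.16, 5.43, 5.54 and 4.82 in MK2-/- and 5.51, 4.72 and 5.05 in MK2/3-/- BMDM. After LPS these were 7.05, 5.86, 6.52 and 5.83 in MK2-/- and 9.72, 9.29, 9.87 and 8.63 in MK2/3-/- BMDM. The MK2/3-/- LPS arrays all lay above the other 11 arrays of the knockouts, and above the wt LPS values of 5.84, 6.79 and 6.05. The difference was 3.21 ± 0.53 (adjusted p 0.0333), and 3.19 without the pair (adjusted p 0.0514).

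Noxo1 (NM_027988), an organiser subunit of the NADPH oxidase NOX1, was repressed by LPS. It went from 7.96, 8.82, 8.54 and 8.43 in medium to 6.05, 6.06, 6.22 and 5.77 with LPS in MK2-/- BMDM. In MK2/3-/- BMDM it went from 8.44, 8.90 and 8.65 to 8.02, 8.08, 7.99 and 7.86. The fall was 5.34-fold in MK2-/- and 1.60-fold in MK2/3-/- BMDM, with the wt response of -1.57 between them. The difference was 1.74 ± 0.30 (adjusted p 0.0396; without the pair 1.78, adjusted p 0.0509).

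C1ra (NM_023143) encodes the protease C1r, which starts the classical complement pathway. Its medium signals were 7.99, 7.21, 7.97 and 7.68 in MK2-/- and 7.19, 6.66 and 7.29 in MK2/3-/- BMDM, and the LPS signals were 8.96, 9.52, 8.78 and 9.53 and 10.66, 10.25, 10.24 and 10.62. LPS arrays did not overlap between the genotypes, while medium arrays did. The response differed by 1.91 ± 0.33 (adjusted p 0.0396), or 1.69 without the pair (adjusted p 0.0696), and a second probe of the gene gave 1.24 (adjusted p 0.632), so that the probes disagreed about the call. Its paralog C1rb, whose transcript may share signal with the probes of C1ra, was not called (1.81, adjusted p 0.0879, with responses of 0.59 in MK2-/- and 2.40 in MK2/3-/- BMDM). C1ra was also among the genes that the study had grouped from these samples, which is no independent evidence. The study measured C1ra by RT-qPCR as well. There its level with LPS was reduced in MK2-/- BMDM and at least partly restored in MK2/3-/- BMDM.

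The promoters of C1ra and C1rb are shown because both genes of this neighbouring pair had a higher value in MK2/3-/- BMDM and their upstream regions resemble each other. The windows span 250 bases before to 50 bases after the annotated start in RefSeq on GRCm38.p6, chr6:124512371-124512670 for C1ra and chr6:124570180-124570479 for C1rb, both on the plus strand. Capitals mark matches to TTCNNNGAA, the GAS element that STAT transcription factors are known to bind, searched on both strands.
C1ra: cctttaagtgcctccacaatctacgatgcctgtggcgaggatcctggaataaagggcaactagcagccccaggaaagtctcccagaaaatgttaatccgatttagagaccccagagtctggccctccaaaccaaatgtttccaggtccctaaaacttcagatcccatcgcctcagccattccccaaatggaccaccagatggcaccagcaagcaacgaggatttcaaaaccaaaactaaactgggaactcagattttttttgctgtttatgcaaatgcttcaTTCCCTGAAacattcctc
C1rb: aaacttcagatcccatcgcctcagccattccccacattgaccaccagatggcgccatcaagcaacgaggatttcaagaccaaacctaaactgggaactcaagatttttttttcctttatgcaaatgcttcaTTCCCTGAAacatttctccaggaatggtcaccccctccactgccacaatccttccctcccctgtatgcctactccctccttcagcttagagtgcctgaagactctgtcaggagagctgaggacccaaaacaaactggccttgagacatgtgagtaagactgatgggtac
Each window held 1 match, TTCCCTGAA, at window positions 283 to 291 in C1ra and 132 to 140 in C1rb. The match in C1ra lies 32 bases after the annotated start. Both windows also held a match to the C/EBP motif TTGCNNAA, which is not marked. Among all 32851 promoter windows 8.30% held a GAS match and 10.8% a match to the C/EBP motif. The windows also shared a run of 34 bases, at positions 152 to 185 in C1ra and 1 to 34 in C1rb, so that the same stretch lies at different distances from the annotated starts. By gene, GAS matches were found for 10.7% of 280 genes with a window whose response was higher by 1 or more on the log2 scale at an unadjusted p below 0.05, for 7.73% of 414 genes with a lower response by the same limits, and for 8.96% of all tested genes with a window. The cAMP response element TGACGTCA, bound by CREB and ATF proteins, was present for 1.79% of the genes with a higher response, 5.31% of those with a lower response and 2.90% of all tested genes. The genes with this element and a lower response included Irf2bpl, Cdkn2b and Areg, which were chosen after their values had been seen. The NFκB motif stood at 1.79%, 1.93% and 1.63%, and the core of the interferon-stimulated response element at 2.50%, 1.21% and 3.97%. C/EBP matches were found for 13.6%, 11.6% and 11.2%, and matches to the AP-1 motif TGANTCA for 10.4%, 7.49% and 7.76%. These shares are a description of the windows without a test.

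Among the genes with a lower response, U90926 (NR_033483), a long non-coding RNA gene, had the widest difference of the 12. In medium its signals were 2.03, 3.46, 3.49 and 2.03 in MK2-/- BMDM, not well above background on any of these 4 arrays, and 6.82, 6.73 and 6.85 in MK2/3-/- BMDM. With LPS they were 13.59, 13.64, 12.68 and 11.56 in MK2-/- and 11.02, 11.32, 11.08 and 9.68 in MK2/3-/- BMDM. The MK2/3-/- arrays lay above the MK2-/- arrays in medium and below them with LPS. The fitted difference was -6.13 ± 0.91 (adjusted p 0.0150; without the pair -6.47, adjusted p 0.0314). Since the MK2-/- medium signal is only a bound, it was also replaced by the lowest signal well above background on each array where it lay below this. The response was then 35.0-fold lower in MK2/3-/- BMDM. This value comes from group means and is not a strict minimum, since a signal not well above background can exceed that floor. In wt BMDM the medium arrays were at 6.69, 5.55, 6.73 and 8.87 and the response was 5.36.

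Calcrl (NM_018782), a receptor for calcitonin gene-related peptide and adrenomedullin, was induced in both genotypes. It rose from 6.62, 5.75, 6.44 and 6.14 to 9.75, 9.66, 9.50 and 9.40 in MK2-/- BMDM and from 7.02, 6.56 and 6.26 to 7.69, 7.75, 7.81 and 8.18 in MK2/3-/- BMDM. This was a 10.1-fold rise in MK2-/- and a 2.36-fold rise in MK2/3-/- BMDM, with no overlap between the LPS arrays. The difference was -2.10 ± 0.34 (adjusted p 0.0285; without the pair -2.20, adjusted p 0.0327), and the wt response of 2.81 lay nearer to that of MK2-/- BMDM.

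Ampd3 (NM_009667), an AMP deaminase that turns AMP into IMP, went in opposite directions. Its signals were 7.40, 7.28, 7.79 and 8.12 in medium and 8.87, 9.13, 9.53 and 8.80 with LPS in MK2-/- BMDM. In MK2/3-/- BMDM they were 7.81, 7.57 and 7.66 in medium and 7.45, 6.51, 6.78 and 7.29 with LPS. The medium arrays overlapped and the LPS arrays did not. The responses of 1.44 and -0.67 were called in their own right as a rise and a fall (adjusted p 0.000100 and 0.0498), and they differed by -2.11 ± 0.37 (adjusted p 0.0396; without the pair -2.02, adjusted p 0.0564). The response in wt BMDM was 0.52.

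Nol4l (NM_001001986), a gene of little known function related to the nucleolar protein gene Nol4, lay just inside the threshold. From 10.78, 10.03, 10.01 and 10.63 in medium it went to 9.90, 10.49, 9.47 and 9.59 with LPS in MK2-/- BMDM, which overlap. In MK2/3-/- BMDM it went from 11.11, 10.77 and 10.69 to 8.20, 8.64, 7.80 and 7.68, a 6.86-fold fall. The difference of -2.28 ± 0.41 had an adjusted p of 0.0499998 (without the pair -2.30, adjusted p 0.0514), and the next gene in order of p, Tcl1b2, had 0.0535.

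The remaining pair rested on signals near background. Adgrg5 (NM_001145972), an adhesion G protein-coupled receptor, was well above background only in MK2/3-/- BMDM in medium (5.58, 4.93 and 4.74) among the 4 knockout groups, and its LPS signals there were 1.99, 2.02, 2.01 and 2.74. Cbx7 (NM_144811), a Polycomb group protein, had 4.04, 3.50 and 4.31 in the same group, well above background on 2 of 3 arrays, and 1.99, 2.02, 2.01 and 1.99 after LPS. In MK2-/- BMDM neither gene was well above background on any array under either treatment. The fitted differences were -2.92 ± 0.51 and -1.95 ± 0.34 (adjusted p 0.0396 and 0.0396), or -2.85 and -1.91 without the pair (adjusted p 0.0653 and 0.0653), and no fold is given because 3 of the 4 groups hold only bounds. The MK2/3-/- medium arrays, which made these differences, also counted towards the filter of at least 3 arrays that let both genes be tested. Signals at the floor vary little between arrays, so that these SE and p-values say little about the spread between cultures.

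**Figure D2:**
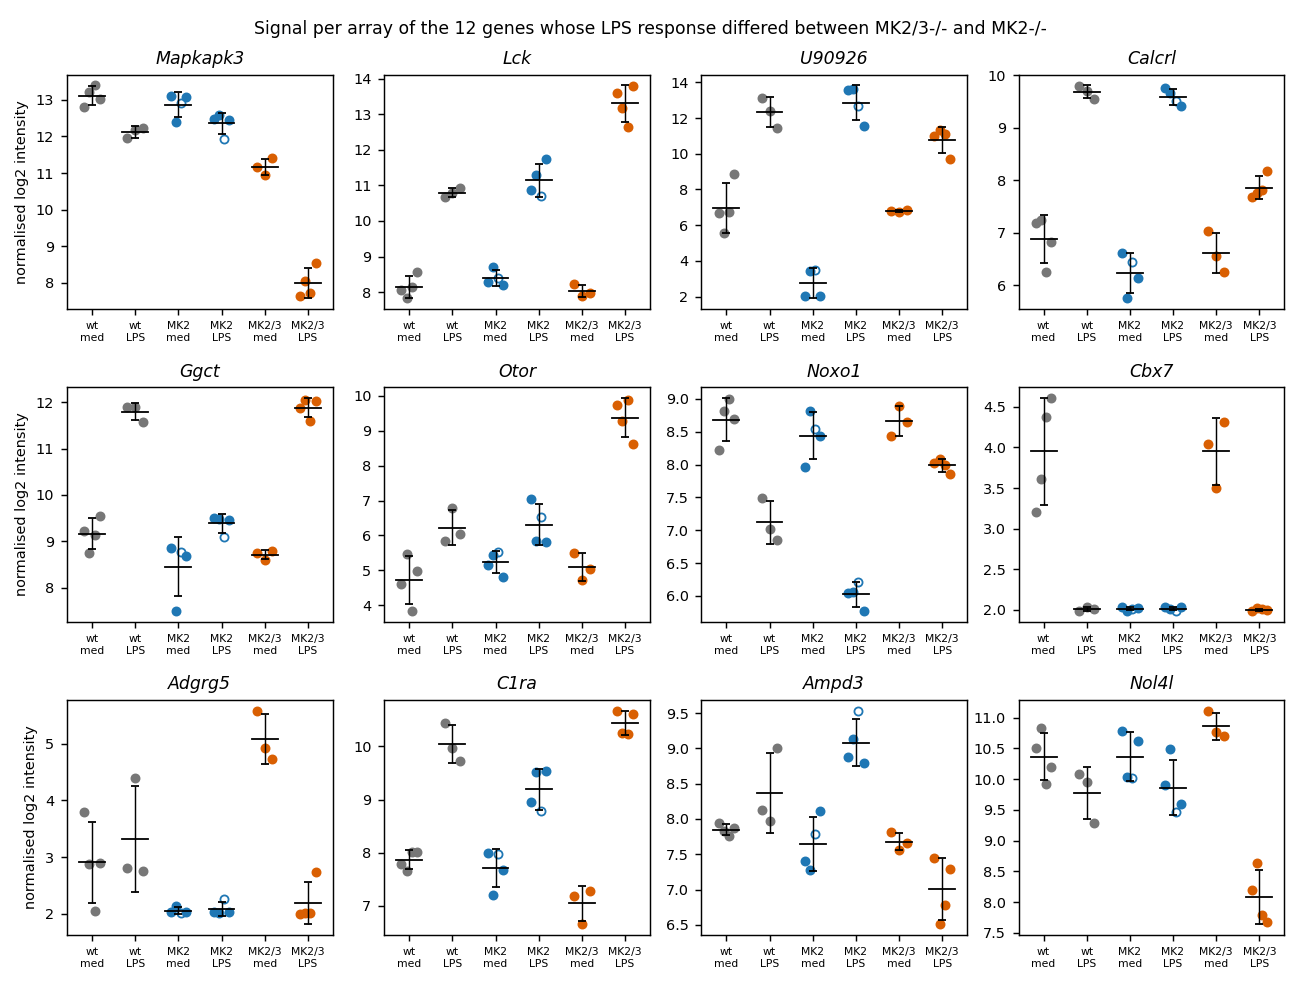
Normalised log2 intensity per array of the 12 genes called, for wt (grey), MK2-/- (blue) and MK2/3-/- BMDM (orange) in medium (med) or with LPS, with the mean as a line and the SD as a bar. Open circles are the third MK2-/- replicates, whose Y-linked signal went against the label; for Lck, Ggct, Otor, Noxo1 and C1ra the MK2/3-/- LPS arrays lie above all MK2-/- LPS arrays.

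Without the pair of arrays whose Y-linked signal went against the label, all 12 differences kept their direction and 4 of the 12 genes were still called, Mapkapk3, Lck, U90926 and Calcrl. Of 19 genes called in that fit 15 had a higher response. Mapkapk3 was called in each of the 22 fits that left out 1 array. Lck lost its call without the second or the third MK2/3-/- medium replicate. U90926 lost its call without the second MK2-/- LPS replicate and without any 1 of the 3 MK2/3-/- medium replicates. The other 9 genes lost theirs in 9 to 19 of these fits, C1ra and Nol4l in 19 each. The fits without 1 array called 1 gene (without either of the same MK2/3-/- medium replicates) to 36 genes (without the fourth MK2-/- LPS replicate).

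**Figure D3:**
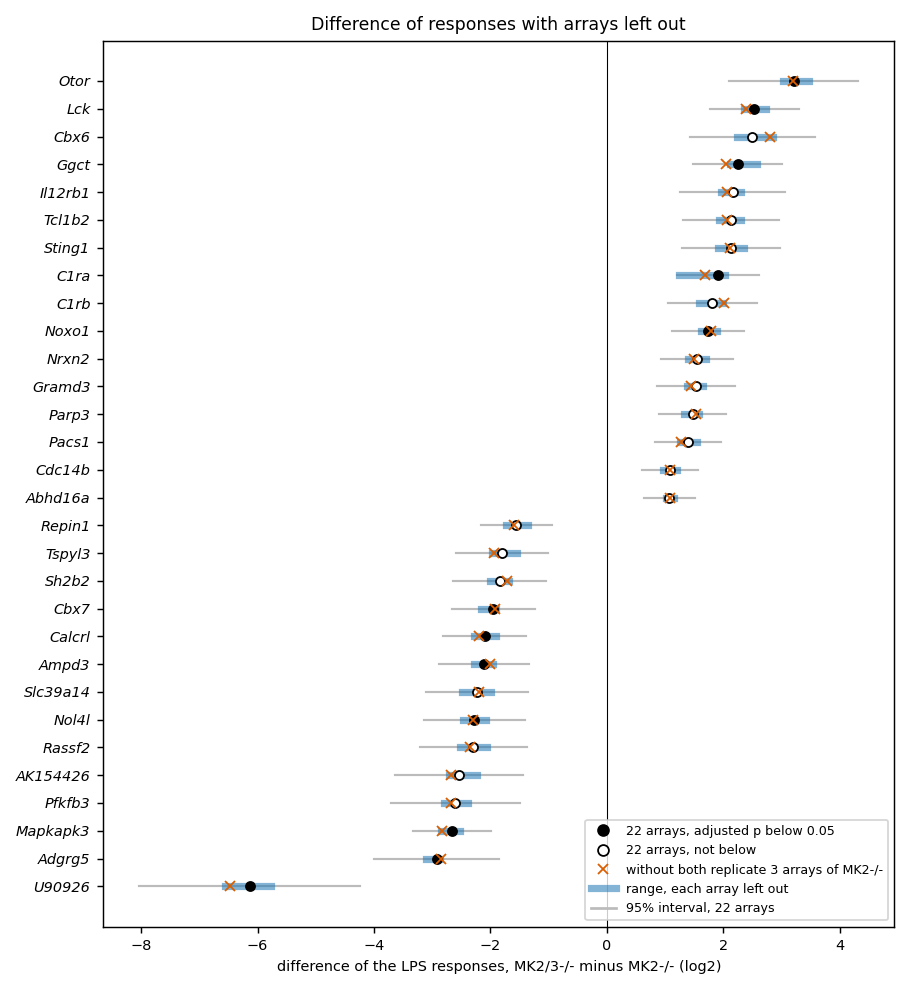
Difference of the LPS responses (log2, horizontal axis) of the 12 genes called (filled circles) and the next 18 genes by p (open circles), with the 95% interval in grey and the range over the 22 fits without 1 array in blue. Crosses give the value without the third replicates of MK2-/- BMDM, medium and LPS; every value stays on its side of 0.

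The next 18 genes in order of p are given as values, since none passed the threshold. Among those with a positive value were Sting1, the adaptor through which cyclic GMP-AMP induces interferon (2.13 ± 0.40, responses of -1.60 in MK2-/- and 0.53 in MK2/3-/- BMDM, adjusted p 0.0535), and Il12rb1, a receptor subunit for interleukins 12 and 23 (2.16, adjusted p 0.0775, and 0.82 on a second probe). Parp3, a DNA repair enzyme, had 1.47 (adjusted p 0.0535) and lies among the neighbours of Mapkapk3, with MK2/3-/- minus MK2-/- at -1.18 in medium (adjusted p 0.00250) and 0.29 with LPS. Tcl1b2 had 2.13, Nrxn2 1.54, Gramd3 1.53, Pacs1 1.39 and Abhd16a 1.07. Other probes of the gene gave different values for Nrxn2 (-0.069), Cdc14b (1.08 against -0.65) and Cbx6 (2.50 against 0.44 and 0.29). Among those with a negative value were Pfkfb3, which makes the main activator of phosphofructokinase and so drives glycolysis (-2.60 ± 0.53, adjusted p 0.0943, and -2.52 on a second probe), and Slc39a14, a zinc and iron importer that is induced in inflammation (-2.24, adjusted p 0.0535). Rassf2 had -2.29, Sh2b2 -1.84, Tspyl3 -1.81 (-0.78 on a second probe) and Repin1 -1.56. The transcript AK154426 had -2.54, with no medium array of either knockout well above background. Without the pair of arrays Cbx6 was called (2.80, adjusted p 0.0357).

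Gene groups were then described by how many members lay on each side of 0, beside 49.9% of all tested genes above 0 and shares with an unadjusted p below 0.05 of 3.56% higher and 5.05% lower. Of the lists examined, 5 held a called gene, the 18 genes of the p38 module (Mapkapk3), the Src family (Lck), the glutathione cycle (Ggct), complement and acute-phase proteins (C1ra) and the genes of the study's pattern III (C1ra).

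Transcripts known as targets of tristetraprolin tended to the lower side. Of 24 tested, 20 had a difference below 0, the median was -0.73, and at an unadjusted p below 0.05 there were 6 lower and 1 higher (Il3, at 1.39) while 0 were called by limma at the adjusted threshold. The neutrophil-attracting chemokines were among the lowest, -3.38 ± 1.04 for Cxcl3, -2.40 ± 0.71 for Cxcl1 and -1.49 for Cxcl2 (adjusted p 0.330, 0.307 and 0.496). Here and below, Cxcl2, Tnf, Il6, Ptgs2, Hmox1, Gclm, Chac1, Il3 and the named cell type markers were picked from their lists after the values had been seen. Cxcl3 had LPS signals of 16.42, 15.80, 15.80 and 14.14 in MK2-/- and 13.49, 12.15, 12.70 and 12.23 in MK2/3-/- BMDM, and medium signals of 6.98, 4.88, 5.27 and 6.02 and 7.93, 6.22 and 4.67. Its LPS arrays were called between the genotypes (-2.90, adjusted p 0.0108), a comparison in which slide and genotype cannot be told apart. Cebpd, a transcription factor of the acute phase, had -1.82 (adjusted p 0.182), with a response of 2.19 in MK2-/- and 0.37 in MK2/3-/- BMDM. Zfp36 itself had -1.18 (adjusted p 0.498) and responses of 3.28 and 2.10. Values nearer 0 were found for other targets, Tnf with 0.20, Il6 with -0.096 and Ptgs2 with -0.11, from responses of 6.68, 12.21 and 10.33 in MK2-/- and 6.89, 12.12 and 10.22 in MK2/3-/- BMDM. Of the 24 genes, 10 were also in a pattern that the study had drawn in part from these samples, and over the other 14 the median was -0.18 with 10 below 0. The genes of the study's pattern I all lay below 0 (12 of 12, median -1.18), as did those of its pattern IV (5 of 5, median -1.98), and those of its pattern III lay above (6 of 6, median 1.00). Patterns II, V and VI were divided, with 4 of 6, 2 of 3 and 3 of 5 below 0 and medians of -0.48, -0.41 and -0.25. These lists were chosen on the same arrays and are no independent evidence of their direction. The study also measured single members by RT-qPCR, among them C1ra and Ifnb1 of pattern III, Cxcl2 of pattern I and Cxcl3 of pattern IV. By size of the wt response, whose arrays enter neither knockout response, the 237 genes with a wt response above 4 had a median difference of -0.20 with 59.9% below 0. The bins at the other end were as low, with 63.2% below 0 for wt responses under -2 (median -0.19) and 63.1% from -2 to -1 (median -0.15), whereas 42.2% were below 0 from 1 to 2 (median 0.11).

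Chemokines as a group had a median of -0.50, or -0.87 to -0.32 without 1 array (14 of 21 below 0, 4 lower and 0 higher at an unadjusted p below 0.05), and 6 of the 21 were also in the tristetraprolin list. Cx3cl1, the membrane-bound chemokine fractalkine, had -2.49 (adjusted p 0.415), while Cxcl9, an attractant of T cells, had 1.61 ± 1.18 (adjusted p 0.766). Interleukin and TNF family genes were spread on both sides (15 of 24 below 0, median -0.26). Values were positive for 2 members of the interleukin 12 family, Il12a at 2.12 (adjusted p 0.412) and Il27 at 1.51 (adjusted p 0.332), while Il23a of the same family had -0.87 (adjusted p 0.900), with no medium array of either knockout well above background. They were negative for the colony-stimulating factors Csf3 (-2.37, adjusted p 0.510) and Csf2 (-1.98, adjusted p 0.545). For Il12a, Csf3 and Csf2 no medium array of either knockout was well above background, so that these values rest on the LPS arrays, which were called between the genotypes at 2.09, -2.42 and -2.23 (adjusted p 0.00932, 0.0246 and 0.0199). Receptors of cytokines and chemokines had 20 of 28 members below 0 (median -0.31), with Il4ra at -1.19 and Il10ra, the receptor of the anti-inflammatory interleukin 10, at 1.04 (adjusted p 0.447 and 0.299). The dimmest probe of Il4ra gave 0.26.

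Interferon-stimulated genes were induced in both genotypes. All 26 tested members were called as induced in both knockouts, with responses between 1.72 and 7.85 in MK2-/- and between 1.63 and 7.61 in MK2/3-/- BMDM. Their differences lay between -0.43 and 0.29 with a median of -0.15 and 20 of 26 below 0, 0 were called by limma and 0 had an unadjusted p below 0.05. Without 1 array the median ran from -0.46 to 0.17, above 0 without the first MK2/3-/- medium replicate. The 95% interval of the difference lay within a 2-fold change in either direction for 11 of the 26, so that for the other 15 such a change was within the error. Ifnb1, which encodes interferon-β, had LPS signals of 8.89, 7.40, 8.77 and 9.67 in MK2-/- and 9.74, 8.43, 10.04 and 10.68 in MK2/3-/- BMDM, and its response differed by 1.98 (95% interval -0.15 to 4.10, adjusted p 0.617), with 1 medium array of each genotype well above background. Ifnar1, a chain of the interferon receptor, had -1.0 (adjusted p 0.374) and Socs1, which restrains receptor signalling, -1.38 (adjusted p 0.570). The guanylate-binding proteins and immunity-related GTPases were divided (8 of 15 below 0, median -0.10, or -0.34 to 0.18 without 1 array), with Gbp9 at 0.93.

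**Figure D4:**
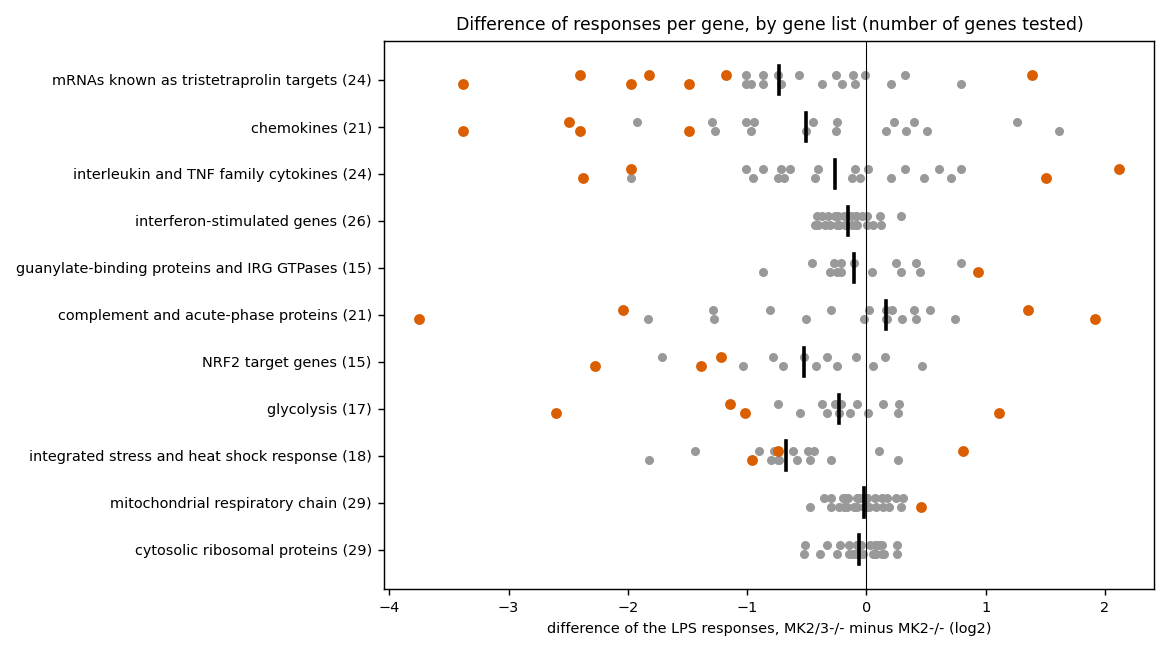
Difference of the LPS responses (log2, horizontal axis) of each gene of 11 lists, with the number of genes tested in parentheses and the median as a black bar; orange points have an unadjusted p below 0.05. Targets of tristetraprolin have a median of -0.73 and a low tail, whereas interferon-stimulated genes, respiratory chain and ribosomal protein genes cluster about 0.

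Within the p38 module, Mapk14, which encodes p38α, had -1.94 ± 0.46 (adjusted p 0.161), with a fall under LPS of -2.94 in MK2-/-, -4.88 in MK2/3-/- and -2.79 in wt BMDM. Its signals were 13.80, 13.00, 13.67 and 13.65 in medium and 10.76, 10.89, 10.57 and 10.14 with LPS in MK2-/- BMDM. In MK2/3-/- BMDM they were 13.71, 13.95 and 13.86 in medium and 7.91, 8.79, 9.19 and 9.93 with LPS. Mknk2, a kinase of translation initiation factor 4E, had 0.87. The proteins that bind AU-rich elements had 14 of 15 values below 0 with a median of -0.34 (-0.49 to -0.16 without 1 array), among them Zc3h12a, the endonuclease Regnase-1 (-1.22, adjusted p 0.342), and Cnot1, the scaffold of the deadenylase complex (-0.83). The median was nearest to 0 without the second MK2-/- medium replicate, which was the lowest of its group for Zc3h12a, Zfp36 (8.87, 7.59, 8.82 and 9.28) and Cnot1 (10.97, 9.70, 10.86 and 11.16). Of the NFκB subunits and inhibitors, 9 of 16 lay below 0 (median -0.15) and Bcl3, an atypical inhibitor, had -1.28 (adjusted p 0.300). Nfkbib, which encodes IκBβ, differed by 0.29 (95% interval -0.31 to 0.88). The Toll-like receptor 4 list had 10 of 14 below 0, with Irak3, a brake on the pathway, at -1.0 and the adaptor Tirap at -0.55. In the Src family, Fgr had -1.12 (adjusted p 0.569). The AP-1 and immediate-early genes had 15 of 23 below 0, with Fosl2 at -1.56 (adjusted p 0.166) and Atf3 at 1.06, and Dusp5, a phosphatase of ERK, had 1.75.

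Targets of NRF2, the regulator of the antioxidant response, had 12 of 15 values below 0 (median -0.53, or -0.87 to -0.38 without 1 array, 3 lower and 0 higher at an unadjusted p below 0.05, 0 called by limma). The lowest was Slc7a11, the cystine importer that feeds glutathione synthesis, at -2.27 ± 0.79 (adjusted p 0.412). Its LPS signals were 11.86, 12.32, 11.95 and 11.18 in MK2-/- and 9.69, 10.17, 10.06 and 9.91 in MK2/3-/- BMDM. Hmox1, heme oxygenase 1, had -1.72, Srxn1 -1.39, Txnrd1 -1.22 and Gclm -1.03 (adjusted p 0.588, 0.538, 0.401 and 0.591). Over the 17 genes of the glutathione cycle the median was -0.069, with Ggct the only call. Glycolytic genes had 12 of 17 below 0 (median -0.23, or -0.38 to -0.071 without 1 array), with Pfkfb3 lowest and the glucose transporter Slc2a1 at -1.14, whereas the hexokinase Hk3 was at 1.11 (adjusted p 0.436 and 0.270). The genes of the integrated stress and heat shock responses had 15 of 18 below 0 (median -0.67), with Chac1 at -1.82, Hspd1 at -0.96 and Hsf1 at -0.74, and Ppp1r15a at 0.81 on the other side. Of the cholesterol genes Abca1, the exporter of cholesterol to lipoproteins, had -3.21 ± 0.82 (adjusted p 0.217), being -0.51 in MK2-/- and -3.71 in MK2/3-/- BMDM. Ptges, the synthase of prostaglandin E2, had -1.26 (adjusted p 0.204). The respiratory chain and ribosomal protein genes, 29 each, had medians of -0.024 and -0.061 with all values between -0.53 and 0.45.

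Among complement and acute-phase genes beside C1ra, Saa2 (serum amyloid A2) had -3.75 (adjusted p 0.306) and Serpina3f 1.35 (adjusted p 0.443). Saa2 was not well above background on any medium array of the knockouts, and its LPS signals were 7.63, 8.77, 8.32 and 7.71 in MK2-/- and 1.99, 4.81, 5.18 and 4.27 in MK2/3-/- BMDM (-4.04, adjusted p 0.00139). The 22 mitotic genes had median responses of -3.81 in MK2-/- and -3.59 in MK2/3-/- BMDM, and 17 of these lay above 0 in the difference (median 0.24). This median ran from -0.24 to 0.71 when 1 array was left out, below 0 without the first MK2-/- medium, the fourth MK2/3-/- LPS or the first MK2/3-/- medium replicate. Aurkb was well above background on only 2 of the knockout arrays, both MK2/3-/- in medium, and no value is given for it. Of 8 dendritic cell markers, 0 were called by limma and 4 had a positive value at an unadjusted p below 0.05, namely Xcr1 (2.41), Clec9a (2.14), Zbtb46 (1.81) and Flt3 (1.29). Below 0 lay 3 of the 8, Ccr7 (-0.99), Cd209a (-0.51) and Siglech (-0.058). Xcr1 was well above background on 4 of the 15 arrays. The summed signal of the list spanned 16.1 to 16.7 on the 3 complete MK2-/- and 16.2 to 16.8 on the MK2/3-/- LPS arrays. Siglech and Ccr7 added most to this sum, so that it could hardly show a change in Xcr1, Clec9a, Zbtb46 or Flt3. The part of dendritic cells in these values was not tested. Of 8 neutrophil markers, 1 had an unadjusted p below 0.05, S100a8 at -2.62.

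Genes were also sorted by how the responses of both genotypes made up the difference. At an unadjusted p below 0.05 and a difference of 1 or more in size, 460 genes had a higher (2.06%) and 615 a lower response (2.75%). The members were chosen on the difference that decides these classes, so the shares are set beside those of all tested genes as a description. Of the 460, 152 (33.0%, against 3.59% of all genes) were called as repressed in MK2-/- BMDM and not called in MK2/3-/- BMDM, and 99 (21.5%, against 5.96%) were called as induced in MK2/3-/- BMDM and not in MK2-/-. Of the 615, 241 (39.2%, against 23.1%) were called as repressed in both, and 160 (26.0%, against 4.40%) as repressed in MK2/3-/- BMDM and not called in MK2-/-. A further 80 (13.0%, against 3.38%) were called as induced in MK2-/- BMDM and not called in MK2/3-/-. Calls as induced in 1 genotype and repressed in the other were few, 3 among the 460 and 7 among the 615, Ampd3 being 1 of the latter.

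The wt response places these differences beside cells with both kinases. Of the 12 called genes, the wt response lay nearer to the MK2-/- response, or beyond it, for 9 and nearer to the MK2/3-/- response for 3. Among the 12 are Mapkapk3, deleted in MK2/3-/- BMDM, and Cbx7 and Adgrg5, whose MK2-/- values are only bounds. The share nearer to or beyond MK2-/- was 80.2% of the genes with a lower and 55% of those with a higher response. Over all tested genes with a difference of 1 or more in size it was 61.5%, and over all tested genes 53.5%. Since the MK2-/- and MK2/3-/- responses chose these genes and their difference sets the scale, the shares are a description without a test. Calcrl, Pfkfb3 and Abca1 were nearer to MK2-/-, with wt responses of 2.81, 5.09 and -0.56 against 3.34, 5.34 and -0.51 in MK2-/- and 1.24, 2.73 and -3.71 in MK2/3-/- BMDM. Slc7a11 lay about midway, at 4.70 in wt, 5.88 in MK2-/- and 3.60 in MK2/3-/- BMDM. Ggct, C1rb and Cbx6 were nearer to the double knockout, with 2.63, 1.85 and -2.45 in wt against 3.18, 2.40 and -1.96.

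**Figure D5:**
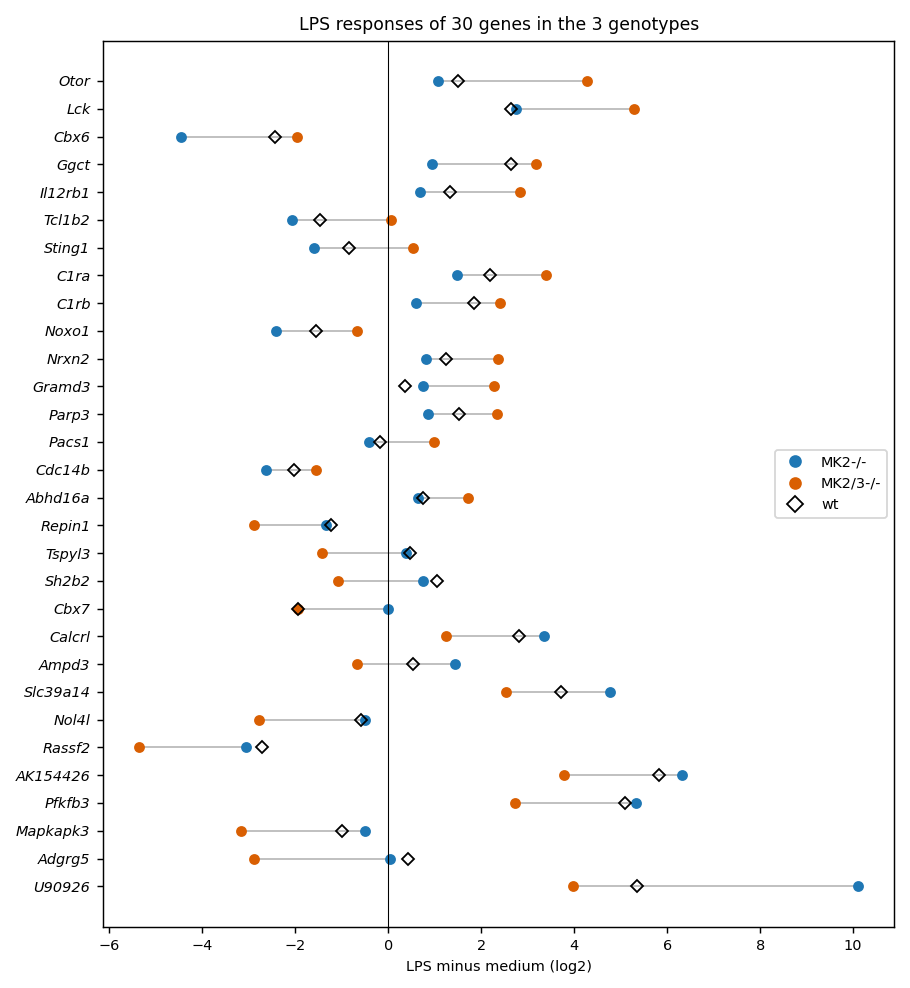
LPS minus medium (log2, horizontal axis) in MK2-/- (blue), MK2/3-/- (orange) and wt BMDM (open diamonds) for the 12 genes called and the next 18 by p, in the order of their difference. For Lck the wt value of 2.64 lies beside that of MK2-/- BMDM, and for Ggct the wt value of 2.63 lies nearer to that of MK2/3-/- BMDM.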

How the data were processed

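RNA from 22 BMDM cultures, per the labels from independent experiments, was hybridised to 1-colour Agilent mouse arrays. The deposited scanner tables hold spot intensities that the authors extracted with Feature Extraction 11.0.1.1, background-subtracted. A further deposited table, in log2 units, had been quantile normalised by the authors and centred on the median over samples, and served as an alternative. No coverage applies to arrays, and their number limits the precision.

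Here, the log2 of the processed intensity was taken, marked spots were left out, spots of a probe were averaged and the 22 arrays were quantile normalised in R 4.3.3. Probes had to be well above background on at least 3 arrays, and the brightest probe stood for a gene, which left 22384 genes. The 6 groups were fitted with limma 3.58.1 (lmFit, eBayes) without a term for pairs of arrays. Genes with a Benjamini-Hochberg adjusted p below 0.05 over all genes were called. All p-values are two-sided. The script was tested on simulated data.

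The members and gene lists were chosen with earlier results of these data known. Named genes were those called, the next by unadjusted p up to 30 in all, up to 3 per list with an unadjusted p below 0.05, the kinase genes, Nfkbib and genes of the study's patterns; further names are stated as chosen after their values were seen. Alternatives covered scaling, background correction (normexp, offset 50, on the median signal, since the mean signal was not used here), filters, probes, samples, variance models, tests, blocks and each array left out. Normalising before averaging and the dimmest probe of a gene were added after seeing the data. Promoter windows came from RefSeq on GRCm38.p6, and 14568 tested genes had one.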

Additional observations from a re-analysis of the deposited data

Results flagged for a closer look

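The 12 differences of the LPS response between MK2/3-/- and MK2-/- BMDM that passed the test were 2.53 for Lck, 2.24 for Ggct, 3.21 for Otor, 1.74 for Noxo1 and 1.91 for C1ra on the higher side. On the lower side they were -2.66 for Mapkapk3, -6.13 for U90926, -2.10 for Calcrl, -1.95 for Cbx7, -2.92 for Adgrg5, -2.11 for Ampd3 and -2.28 for Nol4l. Mapkapk3 is the gene deleted in MK2/3-/- BMDM, and for Cbx7 and Adgrg5 no MK2-/- array was well above background.

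Of 39 groups of 4 arrays tested for a sample far from the others, 5 held one, all for Ggct or Adgrg5. Chance gives about 1 in 20 for normally distributed values. This rate does not apply to the groups of Adgrg5, which lay at the floor, where a small rise is enough to be flagged. Ggct was at 9.09 in the third MK2-/- LPS replicate, with the other arrays between 9.46 and 9.50, and at 7.49 in the second MK2-/- medium replicate, with the others between 8.68 and 8.86. Adgrg5, not well above background in any of these groups, was at 2.27 in the third MK2-/- LPS, 2.15 in the second MK2-/- medium and 2.74 in the fourth MK2/3-/- LPS replicate.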

How the results depend on the processing

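The number of genes called in the difference of responses, 12 with the settings used, was 20 when a probe had to be above background on every array of a group, 30 with array weights, 19 with trend and robust moderation, 19 without the pair of low Y-linked signal and 21 with the dimmest probe of a gene, which was chosen after seeing the data. Other settings ended calls, with 6 of the 12 kept under 75th percentile scaling (9 calls), 6 with the 15 arrays of the knockouts alone (8 calls), 7 with normexp correction (15 calls), 8 with the deposited log2 table (8 calls) and 8 without the array with the most marked spots (12 calls). An unmoderated test called 1724 genes unadjusted and 8 after adjustment. Testing all probes one by one gave 16557 calls of LPS against medium in MK2-/- and 18607 in MK2/3-/- BMDM, since more features were tested. The 460 genes with a higher response became 286 with 75th percentile scaling, and they became 163, with 250 in place of 615 lower, after normexp correction. Leaving out 1 array gave 1 to 36 calls in the difference, 8983 to 10238 in MK2-/-, 9334 to 10933 in MK2/3-/-, and 407 to 547 higher and 450 to 861 lower responses. Of 203 alternative values of the called genes, 159 stayed past the threshold, 44 did not and 0 reversed. Values turned sign for Saa3 with normexp (-0.081) and, with the dimmest probe, for Nrxn2 (-0.069), Cdc14b (-0.65) and Il4ra (0.26). Without 1 array, Saa3 spanned -0.33 to 0.84, with a sign opposite to the fit of all arrays in 5 fits, and Cxcl10 spanned -0.77 to 0.32, likewise in 2. The cause was not tested.

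With the replicate number as a block 22 genes were called, and 23 with the replicate letter, including the 12 in both; deviations from the group means correlated by -0.0853 to 0.304 in the 7 pairs of the same number (5 over 0.1), by -0.0853 to 0.419 in the 7 of the same letter (5 over 0.1) and by -0.33 to 0.17 in the 20 other pairs (3 over 0.1). The third MK2-/- replicates, medium and LPS, both lacked Y-linked signal. By the labels, each pair of the same letter also had animals of the same age, as did some pairs of neither kind. Pairs of the same number did so except for the third MK2/3-/- replicates, at 14 weeks with LPS and 12 weeks in medium. Since 2 pairs of each kind did not pass, the pairing was treated as not settled by the arrays. LPS and medium cultures may thus come from the same animals, which the fit behind the 12 calls ignores.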
